A study of Cucurbita pepo with 18 samples.

Results

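The comparison described here set the seed coat of a hull-less (HL) accession against that of a hulled (H) accession of *Cucurbita pepo* (pumpkin) at 10 days after pollination (DAP). It rests on 6 of the 18 libraries of the study, 3 hull-less and 3 hulled, and on every gene of the deposited count table. Each accession is a single laboratory line, and the hull-less line carries a short insertion in an exon of *CpNST1* (Cp4.1LG12g04350) that leads to a premature stop codon. The effect of that insertion and of any other sequence difference between the lines therefore cannot be told apart. Both lines were otherwise untreated, and the remaining 12 libraries hold the same coats at 5 and 20 DAP, used here only to place the 10 DAP values. The table has 29484 features, of which 27868 are annotated genes and 1616 lie at loci the annotation does not cover. In all, 21104 of them had enough reads in the 6 libraries to be tested.

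The mature pumpkin hull is a lignified seed coat. Its hardness comes from secondary cell walls (SCWs), thick inner wall layers of cellulose, xylan and lignin that are laid down after a cell has stopped growing. In *Arabidopsis*, NAC transcription factors of the NST group switch on MYB factors, which in turn switch on the enzymes that make the 3 wall polymers. Cortical microtubules guide where cellulose is laid down, and laccases and peroxidases join lignin units in the wall.

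The libraries held 17248634 to 18443048 counts each. Levels are given below as CPM, counts scaled to a library of a fixed size, after TMM scaling, and in each gene the values are listed in the order of replicates 1, 2 and 3. A count of 3 in a library corresponded to 0.132 to 0.192 CPM, and intervals quoted from counts cover counting error only. The libraries of the hulled group stood further apart than those of the hull-less group. The median range of log2 CPM over 3 replicates was 0.65 in hulled and 0.41 in hull-less coats, and 13.3% of tested genes spanned at least 2 log2 units in hulled coats against 4.34% in hull-less coats. Across genes, Pearson's r of log2 CPM was 0.837 between hulled replicates 1 and 2, 0.887 between 1 and 3 and 0.958 between 2 and 3, and it lay between 0.954 and 0.974 for the hull-less pairs (a description, since genes are not independent replicates). Hulled replicates 1 and 2 held most of the extremes in the 2804 wide genes. Replicate 1 was highest in 1163 and lowest in 1431 of them, replicate 2 in 1122 and 1231, and replicate 3 in 519 and 142. The TMM factor of hulled replicate 1 was 1.29, against 0.876 to 1.01 in the other libraries.

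At an adjusted p of at most 0.05 and a fold change of at least 2-fold, 2318 genes were differentially expressed (DEGs), 11% of those tested (edgeR quasi-likelihood test, Benjamini-Hochberg adjustment). Of these, 1144 were higher in hull-less coats (5.42%) and 1174 were lower (5.56%). In each of the 2318 genes every hull-less library lay on the same side of every hulled library. Such separation alone was common, being found in 8537 genes (40.5%; 20.5% higher and 20% lower in hull-less coats), of which 4759 differed by less than 2-fold. Conversely, 957 of the 4735 genes with a mean difference of at least 2-fold had overlapping libraries. In bulk tissue, fewer cells of a type and less RNA per cell cannot be told apart, so each difference below is a difference in the RNA of the whole coat.

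A stricter group held its call whichever library was left out. In 6 further fits, each without 1 of the 6 libraries, 661 of the 2318 genes (3.13% of those tested) stayed past both limits in all 6. They split into 355 higher (1.68%) and 306 lower (1.45%) in hull-less coats. The median absolute log2 fold change was 2.66 in these 661 genes and 1.82 in the remaining DEGs. The number of DEGs fell to 849 without hull-less replicate 2, 994 without hull-less replicate 3, 1134 without hull-less replicate 1, and to 934 when hulled replicate 3 was dropped. It rose to 3344 without hulled replicate 1. Below, "kept in all 6 fits" refers to these fits, and where a DEG was not kept in all 6 its largest adjusted p with a library left out is given. Counts of called list members also moved with the library left out, and these values are given where a list leaned one way.

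**Figure D1:**
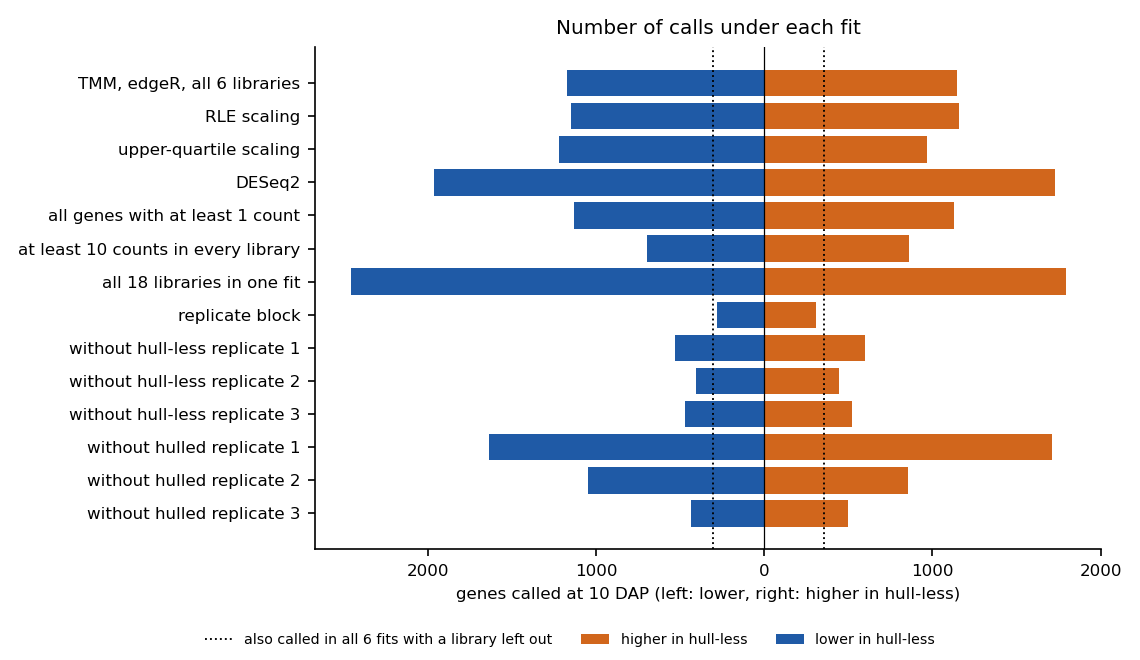
DEGs at 10 DAP under each fit, with the number higher in hull-less coats to the right and the number lower to the left. The 6 lowest bars leave out 1 library each and range from 849 to 3344 calls; dotted lines mark the 355 and 306 genes called in all 6 of them.

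*CpNST1* itself, on linkage group 12 from 3411999 to 3413380, was not among the DEGs. Its level was 48.4, 3.38 and 25.2 CPM in the hulled libraries and 12.03, 11.3 and 21.6 CPM in the hull-less libraries. The hulled values enclosed all 3 hull-less values. The log2 fold change was -0.78 ± 0.84 (SE; n = 3 per accession; edgeR adjusted p = 0.568). At 20 DAP the same transcript was higher in hull-less coats, with a log2 fold change of 2.25 (edgeR adjusted p = 0.000295), and the difference between the stages missed the threshold (edgeR adjusted p = 0.0596). Counts over the gene do not show whether a transcript carries the insertion.

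Genes at or near 0 in hull-less coats headed the 306 lower genes. The lowest named ones included enzymes of amino acid and isoprenoid synthesis, a NAC factor and a small GTPase. Acetylornithine deacetylase (Cp4.1LG05g02140), which releases ornithine on the way to arginine, had 16.0, 33.6 and 31.8 CPM in hulled coats and no count in the 3 hull-less libraries. Against a floor of 3 counts per library this was at least 146-fold lower (edgeR adjusted p = 0.00525). 2-C-methyl-D-erythritol 2,4-cyclodiphosphate synthase (Cp4.1LG01g00230), an enzyme of the plastid isoprenoid pathway, had 39.9, 26.8 and 34.9 CPM in hulled coats and a single count in each hull-less library. The ratio of hulled to hull-less levels was 553 with a counting interval of 189 to 2684 (edgeR adjusted p = 0.000679). Both genes were separated without overlap and kept in all 6 fits, which the choice of the lowest named genes required.

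NAC domain-containing protein 10 (Cp4.1LG10g05110), a member of the same transcription factor family as *CpNST1*, had 19.4, 16.6 and 16.0 CPM in hulled coats and 2 counts in all in hull-less coats (log2 fold change -8.49 ± 0.65, edgeR adjusted p = 0.00285). The Rac-like GTPase RAC13 (Cp4.1LG10g05230), whose cotton namesake is known from fibres at the onset of secondary wall formation, had 240.4, 44.9 and 109 CPM in hulled coats and 0.124, 0.665 and 0.320 CPM in hull-less coats. Its hulled libraries differed several-fold among themselves, yet the lowest of them stood far above the highest hull-less library (log2 fold change -8.44 ± 0.94, edgeR adjusted p = 0.00551). 2-alkenal reductase (Cp4.1LG04g09400), which detoxifies reactive carbonyls, had 241, 81.3 and 127 CPM against 0.930, 0.786 and 0.192 CPM (log2 fold change -7.86 ± 0.73, edgeR adjusted p = 0.0038). The NADP-dependent glyceraldehyde-3-phosphate dehydrogenase (Cp4.1LG07g10870), a cytosolic source of NADPH, had 40.5, 27.1 and 32.7 CPM against 0.0620, 0.302 and 0.320 CPM (log2 fold change -7.15 ± 0.45, edgeR adjusted p = 0.00218). The remaining genes among the 12 lowest were an NKAP family protein, a cytochrome b561 and DOMON domain protein, the copper-transporting ATPase HMA5, a cytochrome b5, a subunit of translation initiation factor 2 and membrane protein of ER body 2. All 12 were kept in all 6 fits, as the rule that chose them required.

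The 12 described genes with the highest fold changes among the 355 encoded proteins of several kinds. GDSL esterase/lipase 5 (Cp4.1LG12g09490), of a large family of secreted hydrolases, had 44.8, 28.4 and 57.4 CPM in hull-less coats and 1 count over the 3 hulled libraries. Its ratio of hull-less to hulled levels was 2526 with a counting interval of 453 to 99802 (edgeR adjusted p = 0.00218). A non-specific lipid-transfer protein 10 gene (Cp4.1LG19g01490), of small secreted proteins that bind lipids, had 25.4, 55.0 and 80.3 CPM in hull-less coats and 2 counts in hulled coats, a ratio of 1556 with an interval of 430.2 to 12853 (edgeR adjusted p = 0.00307). The lipase Cp4.1LG10g02580 had even values, with 118, 102 and 157 CPM in hull-less coats and 0.793, 0.942 and 0.967 CPM in hulled coats (log2 fold change 7.12 ± 0.26, edgeR adjusted p = 0.000679). All hull-less libraries of these 3 genes were above all hulled ones, and the 3 were kept in all 6 fits, both being conditions of the choice.

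The 12 also held a ribosome-inactivating protein, a chitinase and a transporter. The type I ribosome-inactivating protein trichoanguina (Cp4.1LG17g10070), of a class of enzymes that depurinate ribosomal RNA and are common in cucurbit seeds, had 58.2, 62.7 and 176 CPM in hull-less coats and 0.308, 0 and 0 CPM in hulled coats (log2 fold change 9.65 ± 1.07, edgeR adjusted p = 0.00551). An acidic endochitinase (Cp4.1LG00g14490) had 25.7, 16.9 and 21.4 CPM against 0.440, 0.0554 and 0.114 CPM (log2 fold change 6.58 ± 0.60, edgeR adjusted p = 0.00374). Sulfate transporter 3.1 (Cp4.1LG03g10430), which in *Arabidopsis* takes sulfate into chloroplasts, had 47.8, 58.6 and 78.8 CPM against 1.497, 0.277 and 1.14 CPM (log2 fold change 5.96 ± 0.58, edgeR adjusted p = 0.00413). The other genes among the 12 highest encoded a Tubby-like F-box protein, MLO-like protein 3, GLUTAMINE DUMPER 5, ribosomal protein L15, rough sheath 2 and purple acid phosphatase 10. Each of the 12 was kept in all 6 fits and showed no overlap, as the rule that chose them required.

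**Figure D2:**
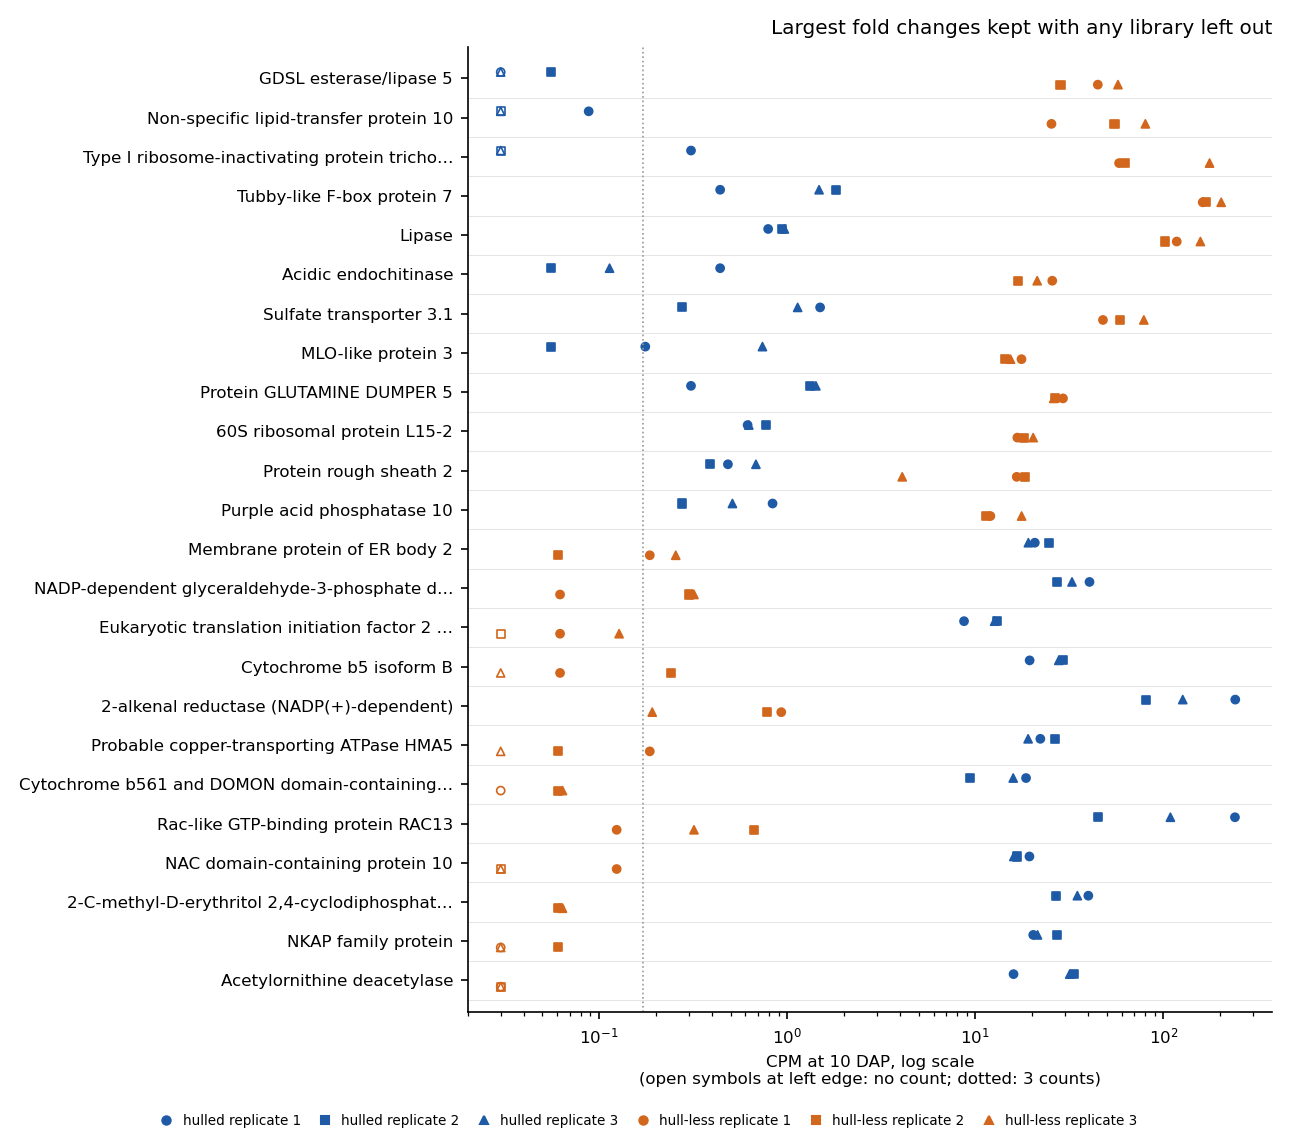
CPM per library (log axis) of the described genes with the 12 highest and 12 lowest fold changes among those with a mean count of at least 100 that were kept in all 6 fits. Blue symbols are hulled and orange symbols hull-less libraries; open symbols at the left edge mark a library with no count, and the dotted line marks 3 counts. The 2 colours are separated in every gene, since no overlap was a condition of the choice.

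Some features were read in 1 accession only. With at least 100 counts in every library of an accession and at most 3 in every library of the other, 36 features were read in hulled coats alone and 10 in hull-less coats alone. Of the 36, 21 never exceeded 3 counts over the 9 hull-less libraries of the 3 stages, and of the 10, 9 did so in all 9 hulled libraries. Only 17 of the 36 and 4 of the 10 had a Swiss-Prot name, and 11 and 3 of them lay outside the annotation.

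The most abundant of the hulled-only genes was Cp4.1LG15g02110, which has no named product, with 1475, 447 and 748 CPM against 0, 0.121 and 0.128 CPM (log2 fold change -13.27 ± 0.98, edgeR adjusted p = 0.00261). The next was Cp4.1LG19g03480, also unnamed, with 455, 493 and 463 CPM in hulled coats and no count in hull-less coats, at least 2524-fold lower (edgeR adjusted p = 0.00199). Both were kept in all 6 fits. A pair of genes for disease resistance response protein 206, a dirigent protein in pea that steers the coupling of lignin-type units, followed the same pattern. Cp4.1LG14g02290 had 244, 12.96 and 71.9 CPM and Cp4.1LG01g00150 had 123, 7.70 and 55.3 CPM in hulled coats, and each had at most 2 counts in any hull-less library. In both, hulled replicate 1 was highest and replicate 2 lowest, and their adjusted p of 0.0112 and 0.011 rose to 0.0603 in both without hull-less replicate 2 (edgeR).

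The list of candidate SCW genes was the study's own, made by matching *Arabidopsis* wall proteins to *C. pepo*, and it was drawn up for these samples, so its direction is no independent evidence. Of its 68 genes 47 were tested, 21 had too few reads and 6 of those had no count in any of the 6 libraries. In hull-less coats 22 of the 47 were lower, against 5.56% of all tested genes, and 0 were higher, by edgeR as by DESeq2 (1 higher gene had an unadjusted p under 0.05). The median log2 fold change was -1.28 over the 47 genes and -0.04 over all tested genes. At an adjusted p of 0.00744 to 0.0428 (edgeR), the 22 were close to the threshold, and 2 of them were kept in all 6 fits. The count of lower genes was 3 without hull-less replicate 2, 4 without hull-less replicate 1, 4 without hull-less replicate 3 and 8 when hulled replicate 3 was dropped, while it was 22 and 26 in the fits that lacked hulled replicates 1 and 2.

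All 22 were separated library by library, as was every DEG. The hulled libraries shared an order in most of the 22. Hulled replicate 1 was the highest hulled library in 17 and replicate 2 the lowest in 18 of the 22, and the median ratio between these libraries was 6.81. Hulled replicate 2 was thus nearest to the hull-less level in most of the list.

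In hull-less coats 6 of the 8 tested cellulose genes were lower, where 5.56% of all tested genes were lower. The median log2 fold change was -4.56 over the 8. The lower count was 0 without hull-less replicate 2 or 3 and with the replicate block, and it was 6 without hulled replicate 1 or 2. The catalytic subunits of the secondary wall cellulose synthase were all among the 6. *CesA4* (Cp4.1LG12g10230) had 211, 63.2 and 157 CPM in hulled and 17.0, 17.5 and 13.9 CPM in hull-less coats (log2 fold change -3.15 ± 0.46, edgeR adjusted p = 0.0104, 0.0561 without hull-less replicate 2). *CesA7* (Cp4.1LG00g03460) had 24.0, 3.60 and 6.08 CPM against 0.310, 0.544 and 0.703 CPM (log2 fold change -4.42 ± 0.87, edgeR adjusted p = 0.0236, 0.0992 without hull-less replicate 2). *CesA8* (Cp4.1LG20g04780) had 34.7, 3.43 and 13.5 CPM against 0.0620, 0.181 and 0.192 CPM (log2 fold change -6.82 ± 1.10, edgeR adjusted p = 0.0135, 0.0679 without hull-less replicate 2). In all 3, hulled replicate 1 was the highest library and the hull-less values lay within a narrow band below every hulled value.

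The most abundant of the lower cellulose genes was *CTL2* (Cp4.1LG03g11750), a chitinase-like protein needed for cellulose assembly in *Arabidopsis*. It had 460.3, 66.0 and 217 CPM in hulled and 4.90, 5.80 and 4.47 CPM in hull-less coats (log2 fold change -5.61 ± 0.77, edgeR adjusted p = 0.00941, 0.0534 without hull-less replicate 2). *COBL4* (Cp4.1LG04g14420), a glycoprotein anchored at the plasma membrane, and *FLA11* (Cp4.1LG10g04690), a fasciclin-like arabinogalactan protein of secondary walls, had log2 fold changes of -5.33 ± 1.02 and -4.69 ± 0.93 (edgeR adjusted p = 0.0215 and 0.0238, up to 0.0928 and 0.1 with a library left out). The endoglucanase KORRIGAN (Cp4.1LG14g00660), which acts in both primary and secondary walls, was not called and its libraries overlapped, with 385, 974 and 999 CPM against 507, 456 and 663 CPM (log2 fold change -0.54 ± 0.42, edgeR adjusted p = 0.428).

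Xylan genes followed the cellulose genes, with 7 of 10 tested members lower, against 5.56% of all tested genes, and a median log2 fold change of -3.53. Their lower count was 0 without any 1 of the hull-less libraries, 8 without hulled replicate 2 and 3 with the replicate block. *IRX9* (Cp4.1LG03g01800), a glycosyltransferase of the xylan backbone, had 52.8, 6.98 and 24.3 CPM against 0.434, 0.423 and 0.895 CPM (log2 fold change -5.58 ± 0.88, edgeR adjusted p = 0.013, 0.068 without hull-less replicate 2). *PARVUS* (Cp4.1LG11g01680), which acts on the end sequence of the chain, had 43.3, 3.21 and 12.5 CPM against a single hull-less count, a ratio of 1043 with a counting interval of 187 to 41236 (edgeR adjusted p = 0.0145, 0.0874 without hull-less replicate 1). *GUX2* (Cp4.1LG11g01550), which adds glucuronic acid side chains, had 57.5, 5.15 and 18.4 CPM against 2 hull-less counts, a ratio of 712 with an interval of 197 to 5888 (edgeR adjusted p = 0.013, 0.0837 without hull-less replicate 2). The order of the hulled libraries was again replicate 1, then 3, then 2. *IRX15* (Cp4.1LG19g11200) was at least 28.6-fold lower, and *IRX10* (Cp4.1LG03g13340), *FRA8* (Cp4.1LG16g04950) and *GUX3* (Cp4.1LG01g20960) had log2 fold changes of -2.85, -4.21 and -1.28. With a library left out the adjusted p of these 4 rose to as much as 0.114, 0.122, 0.0914 and 0.0928 (edgeR). The backbone homologs *IRX10L* (Cp4.1LG04g16300) and *IRX9L* (Cp4.1LG02g03720) had 0.38 ± 0.17 and 0.31 ± 0.35 (edgeR adjusted p = 0.181 and 0.582), and the acetylation gene *RWA2* (Cp4.1LG20g05290) had -0.05 ± 0.44 (adjusted p = 0.952).

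Of the lignin pathway genes 4 of the 7 tested were lower, against 5.56% of all tested genes, with a median log2 fold change of -1.67. The lower count was 0 without hull-less replicate 1 or 3 or hulled replicate 3, and 6 without hulled replicate 2. *CCoAOMT* (Cp4.1LG15g04800), which methylates caffeoyl-CoA, had 122, 9.80 and 62.7 CPM against 0.930, 2.24 and 0.447 CPM (log2 fold change -5.73 ± 1.11, edgeR adjusted p = 0.0221, 0.0892 without hull-less replicate 1). The other lower members were the shikimate transferase *HCT* (Cp4.1LG12g07260, -2.62 ± 0.62), the hydroxylase *C3H1* (Cp4.1LG03g08700, -2.05 ± 0.35) and the esterase *CSE* (Cp4.1LG02g14840, -1.20 ± 0.25), which act one after the other ahead of *CCoAOMT*. Their adjusted p values of 0.0404, 0.0155 and 0.0285 rose to 0.137, 0.0712 and 0.112 with a library left out (edgeR). *C4H* (Cp4.1LG05g10140), at the entry of the pathway, had 91.0, 20.7 and 51.4 CPM against 10.5, 22.6 and 17.96 CPM and overlapped between the accessions (log2 fold change -1.67 ± 0.56, edgeR adjusted p = 0.0993).

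Of the enzymes that polymerise lignin, some members had high hulled and low hull-less values, but the peroxidase list was mixed and the summed laccase levels overlapped. Laccase-12 (Cp4.1LG01g21920) had 34.4, 0.775 and 20.4 CPM in hulled coats and no count in hull-less coats, but missed the threshold (edgeR adjusted p = 0.0648). Hulled replicate 2 was near the hull-less level in this gene. Peroxidase 64 (Cp4.1LG19g08660) had 231, 5.43 and 114 CPM against 1.18, 1.51 and 1.53 CPM (log2 fold change -6.37 ± 1.35, edgeR adjusted p = 0.0293, 0.116 without hull-less replicate 2). Of 23 tested class III peroxidases 2 were lower and 1 was higher, and of 3 tested laccases 0 were called by edgeR and 1 by DESeq2, with 1 at an unadjusted p under 0.05.

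Of the regulators 3 of 10 tested were lower and of the cytoskeleton and secretion genes 2 of 12, with median log2 fold changes of -0.95 and -0.27. Over all tested genes 5.56% were lower. With a library left out these lower counts ran from 1 to 5 and from 1 to 2. *MYB58/63* (Cp4.1LG16g07120), whose *Arabidopsis* counterparts activate lignin genes, had 7.001, 0.942 and 2.90 CPM in hulled coats and 2 counts in hull-less coats, a ratio of 94.0 with a counting interval of 25.7 to 781 (edgeR adjusted p = 0.0178, 0.0793 without hull-less replicate 2). *MYB46* (Cp4.1LG16g08960), the switch directly below the NAC factors in *Arabidopsis*, was not tested, since hulled replicate 2 had too few reads. It had 9.16, 0.498 and 3.13 CPM in hulled coats and no count in hull-less coats. Against the hulled mean this was at least 22.9-fold lower, a bound that rests mostly on replicate 1 and does not hold for replicate 2. *SND1* (Cp4.1LG00g00720), a close relative of *NST1*, showed 2.29, 0.277 and 1.42 CPM against no count. In these 3 genes replicate 2 was the lowest hulled library.

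The pair of SCW genes kept in all 6 fits had even hulled values. *FRA1* (Cp4.1LG06g01660), a kinesin that moves along cortical microtubules and affects wall deposition, had 37.6, 46.2 and 43.7 CPM in hulled and 14.8, 17.7 and 19.9 CPM in hull-less coats (log2 fold change -1.28 ± 0.16, edgeR adjusted p = 0.00744). *MED5a/REF4* (Cp4.1LG12g02320), a Mediator subunit that restrains phenylpropanoid genes in *Arabidopsis*, had 34.3, 39.8 and 32.1 CPM against 13.8, 17.8 and 17.2 CPM (log2 fold change -1.12 ± 0.16, edgeR adjusted p = 0.01). MAP65-8 (Cp4.1LG11g03750), a microtubule bundling protein, was the other lower cytoskeletal member (-2.93 ± 0.56, edgeR adjusted p = 0.0212, 0.0732 without hulled replicate 3).

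**Figure D3:**
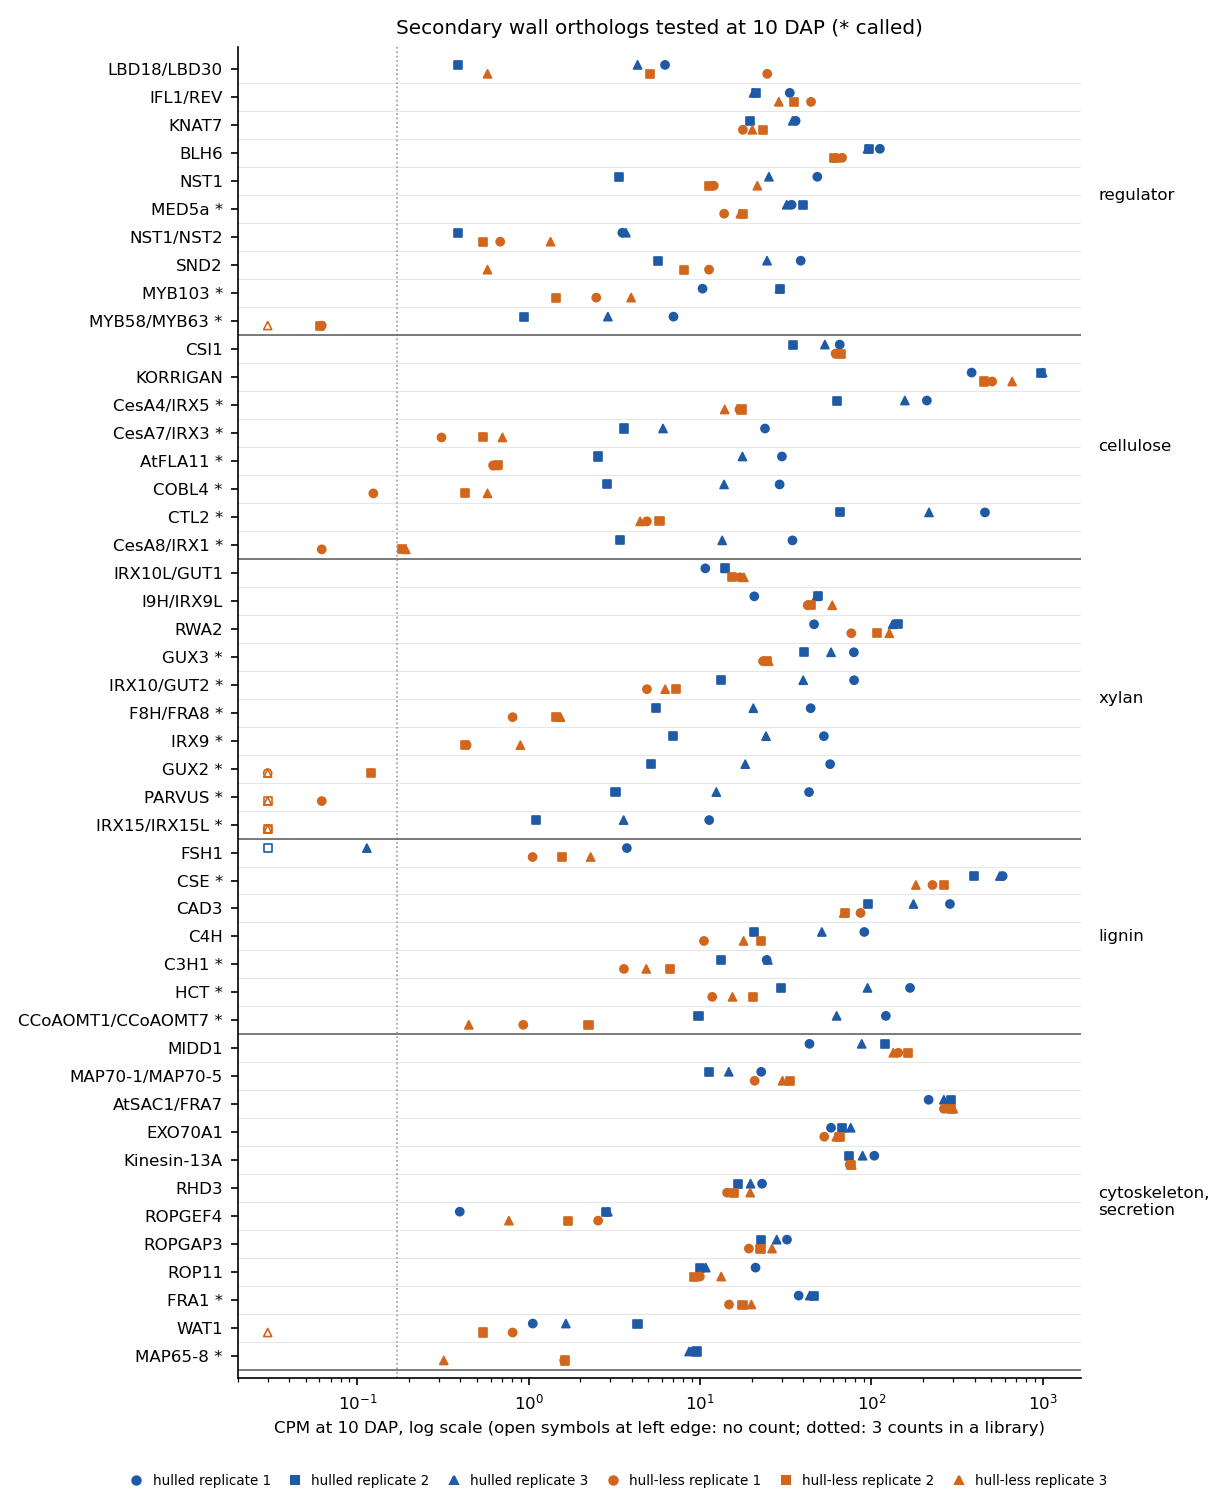
CPM per library (log axis) of the 47 tested SCW candidates, grouped by role; an asterisk marks the 22 DEGs, all lower in hull-less coats. Blue hulled circles (replicate 1) lie farthest right and blue squares (replicate 2) farthest left of the hulled symbols in 17 and 18 of the 22, whereas the orange hull-less symbols lie close together in most genes.

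Of the 22 lower genes, 18 could be tested at 5 DAP and 6 were lower there, and 19 of 22 were lower at 20 DAP. The log2 fold change was itself lower at 10 than at 5 DAP in 15 of the 22 (edgeR contrast over 18 libraries), against 3.87% of all genes. The contrast reuses the 10 DAP libraries in which the 22 were called, which favours such a result. Between 10 and 20 DAP the log2 fold change differed in 5 of the 22, 2 being more negative at 10 DAP and 3 less. *FRA8* (Cp4.1LG16g04950), *CesA7* (Cp4.1LG00g03460) and *CesA4* (Cp4.1LG12g10230) were the 3 that were less negative at 10 DAP, their log2 fold change at 20 DAP being -9.35, -8.25 and -5.65.

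Outside the SCW list, tubulins, the building blocks of microtubules, had the largest share of lower members. In hull-less coats 8 of 22 tested tubulin genes were lower and 1 was higher, with a median log2 fold change of -1.46, where 5.56% of all tested genes were lower. The lower count was 4 without hull-less replicate 1 or 3, 2 without hull-less replicate 2, 3 without hulled replicate 3, 13 without hulled replicate 2 and 3 with the replicate block. The beta-2 chain gene Cp4.1LG00g13540 had 14.0, 13.1 and 9.61 CPM against 0.248, 0.0604 and 0.0639 CPM and was kept in all 6 fits (log2 fold change -6.54 ± 0.50, edgeR adjusted p = 0.00285). The beta-5 chain gene Cp4.1LG20g05770 had 21.5, 5.76 and 9.38 CPM against 0.434, 0.544 and 0.767 CPM (-4.38 ± 0.61, edgeR adjusted p = 0.00972, 0.055 without hull-less replicate 2). Tubulin copies are alike in sequence, so a read shared by copies makes each single value uncertain.

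Cytosolic ribosomal proteins showed a small difference with little overlap. Of 302 tested genes 18 were lower and 2 higher, a share of 6.62% against 11% over all genes, yet 216 had every hull-less library below every hulled library and 7 the reverse, where 20% and 20.5% of all tested genes were separated in these directions. Their lower count was 7 without hull-less replicate 2 or 3 and 8 when hulled replicate 3 was dropped. The median log2 fold change was -0.47, against -0.04 over all genes. The summed level was 15488, 14554 and 15592 CPM in hulled and 11720, 11136 and 11212 CPM in hull-less coats. Core histones had 5 lower and 0 higher of 42 (median -0.48), led by an H2AX gene and histone H3.2, a lower count that ran from 0 without hull-less replicate 2 to 7 without hulled replicate 1, and the cyclins and their kinases had 5 higher and 4 lower of 70.

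Photosystem and light-harvesting genes had 9 higher and 3 lower of 65 tested, where 5.42% and 5.56% of all tested genes were higher and lower, and a median log2 fold change of 0.66. The higher count moved with the library left out. It was 3 without hull-less replicate 1 or 3, 2 without hulled replicate 3 and 20 without hulled replicate 1. With the replicate block 1 was higher and 2 were lower. Over all genes the higher calls, 1144 in the full fit, also moved. They numbered 601 without hull-less replicate 1, 521 without hull-less replicate 3, 496 without hulled replicate 3 and 1709 without hulled replicate 1. With the block they numbered 308. The summed level of the photosystem and light-harvesting list was 1214, 1236 and 1058 CPM in hulled and 1865, 1498 and 2619 CPM in hull-less coats. The photosystem I subunit gene *psaK* (Cp4.1LG10g06250) had 25.5, 14.2 and 13.4 CPM against 85.5, 61.5 and 78.8 CPM (log2 fold change 2.09 ± 0.30, edgeR adjusted p = 0.0102), and PSB28 of photosystem II (Cp4.1LG17g09650) had 10.2, 12.2 and 10.6 CPM against 25.7, 26.7 and 35.7 CPM (1.41 ± 0.18, adjusted p = 0.00753). Both were kept in all 6 fits. The 2 lower members kept in all 6 fits were subunit N of photosystem I (Cp4.1LG19g12170), at 41.5, 42.3 and 43.4 CPM against 4.84, 4.96 and 6.78 CPM, and an oxygen-evolving enhancer protein 2-1 gene (Cp4.1LG14g03090), at 18.2, 15.8 and 12.2 CPM against 0.310, 0.604 and 1.09 CPM.

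Markers of other seed tissues were checked as lists. Of 27 storage and oil body genes of embryo and endosperm, 4 had no count in any of the 6 libraries, 9 were tested and 0 were called by edgeR and 2 by DESeq2, with 4 at an unadjusted p under 0.05, 3 of them higher in hull-less coats. Their summed level ran from 141 to 224 CPM in hulled and from 241 to 321 CPM in hull-less coats. An 11S globulin gene (Cp4.1LG12g01360) had 16, 1096 and 709 counts in hulled and 1399, 1254 and 1697 counts in hull-less coats, so hulled replicate 1 stood apart, yet every hull-less library was above every hulled one (edgeR adjusted p = 0.458). Of 15 xylem cell death genes 11 were tested and 0 called by edgeR and 2 by DESeq2 (2 at an unadjusted p under 0.05), with summed levels of 538 to 1638 and 1354 to 1640 CPM. The xylem cysteine protease XCP2 (Cp4.1LG02g08570) had 40, 10 and 29 counts against 10, 9 and 3. The part of these tissues in the differences above was not tested.

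Calls in other lists of wall genes are set here beside the 5.42% higher and 5.56% lower among all tested genes. Among xyloglucan endotransglucosylases, which cut and rejoin the xyloglucan tethers between cellulose fibres, 3 were higher and 2 lower of 20 tested (median log2 fold change 0.86). XTH9 (Cp4.1LG15g07730) had 16.2, 14.3 and 16.6 CPM against 36.6, 50.8 and 50.4 CPM and was kept in all 6 fits (1.55 ± 0.17, edgeR adjusted p = 0.00551). Pectin-modifying genes had 6 higher and 7 lower members of 78. With a library left out these counts ran from 1 to 9 and from 2 to 10. Those of the xyloglucan endotransglucosylases ran from 1 to 6 higher and from 0 to 2 lower. The pectinesterase 22 gene (Cp4.1LG18g00420) had 17.3, 16.4 and 13.2 CPM against 0.310, 0.483 and 0.0639 CPM (-5.73 ± 0.52, edgeR adjusted p = 0.00379), and pectinesterase QRT1 (Cp4.1LG06g08470), which in *Arabidopsis* loosens pectin so that pollen grains part, fell by 2.21 on the log2 scale. Both were kept in all 6 fits. Fasciclin-like arabinogalactan proteins had 4 lower and 0 higher of 23, with 1 lower without any 1 of the hull-less libraries or without hulled replicate 3, and *FLA7* (Cp4.1LG15g06980) alone was kept in all 6 fits, with 12.6, 19.6 and 20.8 CPM against 2.79, 4.05 and 1.79 CPM (-2.61 ± 0.36, edgeR adjusted p = 0.00966).

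Among transcription factors, WRKY and AP2/ERF genes had more higher than lower calls, 11 against 2 of 59 and 11 against 2 of 73, where 5.42% and 5.56% of all tested genes were higher and lower. Without hull-less replicate 1, 2 or 3 the higher counts fell to 5, 3 and 4 in the WRKY and to 5, 4 and 4 in the AP2/ERF genes, and without hulled replicate 3 to 4 and 5. Without hulled replicate 1 they were 15 and 14, and without hulled replicate 2 they were 6 and 10. MYB genes had 8 and 8 of 69, NAC genes 5 and 5 of 69 and bHLH genes 16 and 9 of 134, the bHLH counts falling to 1 and 1 without hull-less replicate 3. *ERF053* (Cp4.1LG16g07870), of a family known from drought responses, had 2.82, 1.61 and 1.48 CPM in hulled and 55.7, 43.8 and 42.4 CPM in hull-less coats (log2 fold change 4.57 ± 0.31, edgeR adjusted p = 0.00218). An APETALA 2 gene (Cp4.1LG01g04250), whose *Arabidopsis* counterpart shapes the seed coat epidermis, had 1.63, 0.665 and 1.36 CPM against 19.0, 15.5 and 13.4 CPM (3.69 ± 0.37, adjusted p = 0.00444). Both were separated without overlap and kept in all 6 fits.

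Homeobox genes had 8 higher and 4 lower members of 92, the higher count running from 2 without hull-less replicate 2 to 16 without hulled replicate 1. *HDG12* (Cp4.1LG20g00460), of the class that acts in the epidermis, had 18.3, 11.6 and 14.1 CPM against 65.4, 94.5 and 71.4 CPM (log2 fold change 2.39 ± 0.24, edgeR adjusted p = 0.00435), with all hull-less values above all hulled ones. *ATHB-16* (Cp4.1LG11g07640), a leucine zipper factor that restrains leaf cell expansion in *Arabidopsis*, had 15.7, 16.9 and 17.7 CPM against 0.310, 0.423 and 0.0639 CPM (-5.93 ± 0.48, adjusted p = 0.00301). *HAT22* (Cp4.1LG01g09020), also a leucine zipper factor, had 85.0, 195 and 162 CPM against 29.0, 16.0 and 13.5 CPM (-2.92 ± 0.44, adjusted p = 0.0115, 0.0621 without hull-less replicate 2). The first pair were kept in all 6 fits. NAC14 (Cp4.1LG00g06240) rose from 1.32, 2.27 and 1.54 to 17.0, 16.9 and 16.4 CPM and NAC17 (Cp4.1LG17g04850) fell from 28.9, 20.5 and 24.2 to 6.39, 8.58 and 6.84 CPM, both kept in all 6 fits (edgeR adjusted p = 0.00285 and 0.00587).

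The hormone lists had calls in both directions, where 5.42% and 5.56% of all tested genes were higher and lower. Called shares were 14.1% of auxin, 17.9% of gibberellin and 17.6% of abscisic acid genes, against 11% of all tested genes. Gibberellin-regulated protein 1 (Cp4.1LG07g03630) had 222, 51.4 and 86.7 CPM in hulled and 1.74, 0.846 and 0.320 CPM in hull-less coats and was kept in all 6 fits (log2 fold change -6.94 ± 0.88, edgeR adjusted p = 0.00744). A gibberellin 2-beta-dioxygenase (Cp4.1LG12g10390), of the enzymes that inactivate gibberellin, had 7 counts in hulled coats and 0.959 to 2.36 CPM in hull-less coats, a ratio of 14.7 with a counting interval of 6.82 to 37.6 (edgeR adjusted p = 0.00884, kept in all 6 fits). Over the gibberellin list 2 genes were higher and 3 lower of 28, with a median of -1.36. Without hulled replicate 1, the highest hulled library in 16 of the 28, the median was -0.44. The auxin response factors *ARF10* (Cp4.1LG16g05330) and *ARF17* (Cp4.1LG07g01180) moved apart, at 8.01, 5.82 and 9.44 against 21.0, 23.3 and 31.1 CPM and at 14.4, 12.7 and 11.6 against 4.71, 4.83 and 5.18 CPM, and both were kept in all 6 fits (edgeR adjusted p = 0.0108 and 0.00684). Auxin genes had 6 higher and 6 lower of 85 and abscisic acid genes 3 and 3 of 34. With a library left out, auxin genes ran from 1 to 11 higher and from 1 to 8 lower. Abscisic acid genes ran from 0 to 5 higher and from 0 to 3 lower, and gibberellin genes from 1 to 3 and from 1 to 6.

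Flavonoid, cuticle and transport genes held several even differences. Of 18 tested flavonoid genes 4 were higher and 0 lower, where 5.42% and 5.56% of all tested genes were higher and lower, and 3 of the 4 were kept in all 6 fits. A flavonoid 3'-monooxygenase (Cp4.1LG03g15110), which sets the hydroxylation pattern of flavonoids, had 14.3, 5.76 and 16.8 CPM against 192, 141 and 172 CPM (log2 fold change 3.78 ± 0.43, edgeR adjusted p = 0.00587). The 3-ketoacyl-CoA synthase 11 gene (Cp4.1LG04g09460), of the enzymes that lengthen fatty acids for waxes and suberin, had 6.21, 2.10 and 2.67 CPM against 45.7, 40.6 and 52.6 CPM (3.65 ± 0.44, adjusted p = 0.0068). Both were kept in all 6 fits. GDSL esterase/lipases had 8 higher and 2 lower of 45, with 3 of the higher kept in all 6 fits and 3 higher without hull-less replicate 2. Aquaporins, the water channels, had 3 higher and 0 lower of 32, a higher count that ran from 0 without hulled replicate 3 to 6 without hulled replicate 1, and *PIP2-7* (Cp4.1LG05g08140) had 266, 219 and 235 CPM against 621, 834 and 953 CPM (1.74 ± 0.25, adjusted p = 0.0104, 0.0579 without hulled replicate 3).

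Among sugar transport and sucrose-cleaving genes 2 were higher and 2 lower of 39, a called share of 10.3%, near the 11% of all tested genes. *SWEET15* (Cp4.1LG12g09980), whose *Arabidopsis* counterpart releases sucrose from the seed coat to the embryo, had 285, 5.93 and 26.8 CPM in hulled and 0.496, 1.21 and 0.767 CPM in hull-less coats. Hulled replicate 1 was more than 10-fold above the other hulled libraries, and the adjusted p of 0.0404 rose to 0.143 without hull-less replicate 3 (edgeR). The neutral invertase *CINV2* (Cp4.1LG06g07480), which splits sucrose in the cytosol, had even values of 18.01, 22.0 and 20.7 CPM against 7.01, 6.47 and 7.22 CPM and was kept in all 6 fits (-1.55 ± 0.15, edgeR adjusted p = 0.00413).

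The remaining lists had few calls, set here beside the 11% called among all tested genes. The called share was 6.25% for MADS-box factors, 9.18% for plastid-type ribosomal proteins and 10.8% for cutin, suberin and wax genes. It was 11.8% for expansins, 13.3% for pathogenesis-related proteins and chitinases, 15.3% for kinesins and 17.1% for heat shock proteins. Lipid transfer proteins had 18.2% and ethylene synthesis genes 33.3%, both of few tested members. Kinesins, motors on microtubules, had 6 higher and 3 lower of 59 tested, and *KIN-14S* (Cp4.1LG00g10460) had 5.77, 5.65 and 4.78 CPM in hulled and 18.4, 16.7 and 19.4 CPM in hull-less coats and was kept in all 6 fits (1.75 ± 0.16, edgeR adjusted p = 0.00374). Plastid-type ribosomal proteins had 5 higher and 4 lower of 98, pathogenesis-related proteins and chitinases 6 and 4 of 75 and heat shock proteins 3 and 3 of 35. MADS-box factors had 2 higher and 0 lower of 32, and *AGL82* (Cp4.1LG05g10610) had 3.10, 2.42 and 1.34 CPM in hull-less coats against 2 counts in hulled coats, a ratio of 67.0 with a counting interval of 18.1 to 560.4 (edgeR adjusted p = 0.00697, kept in all 6 fits). Genes for cutin, suberin and wax had 3 higher and 1 lower of 37, expansins 1 and 1 of 17, lipid transfer proteins 1 and 1 of 11 and ethylene synthesis genes 1 and 1 of 6. The lower cuticle gene was the acyltransferase *GPAT5* (Cp4.1LG01g10800), which makes suberin precursors in *Arabidopsis*, with 28.8, 128 and 83.1 CPM against 16.2, 11.9 and 19.4 CPM (-2.34 ± 0.54, edgeR adjusted p = 0.0382, 0.14 without hull-less replicate 2).

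**Figure D4:**
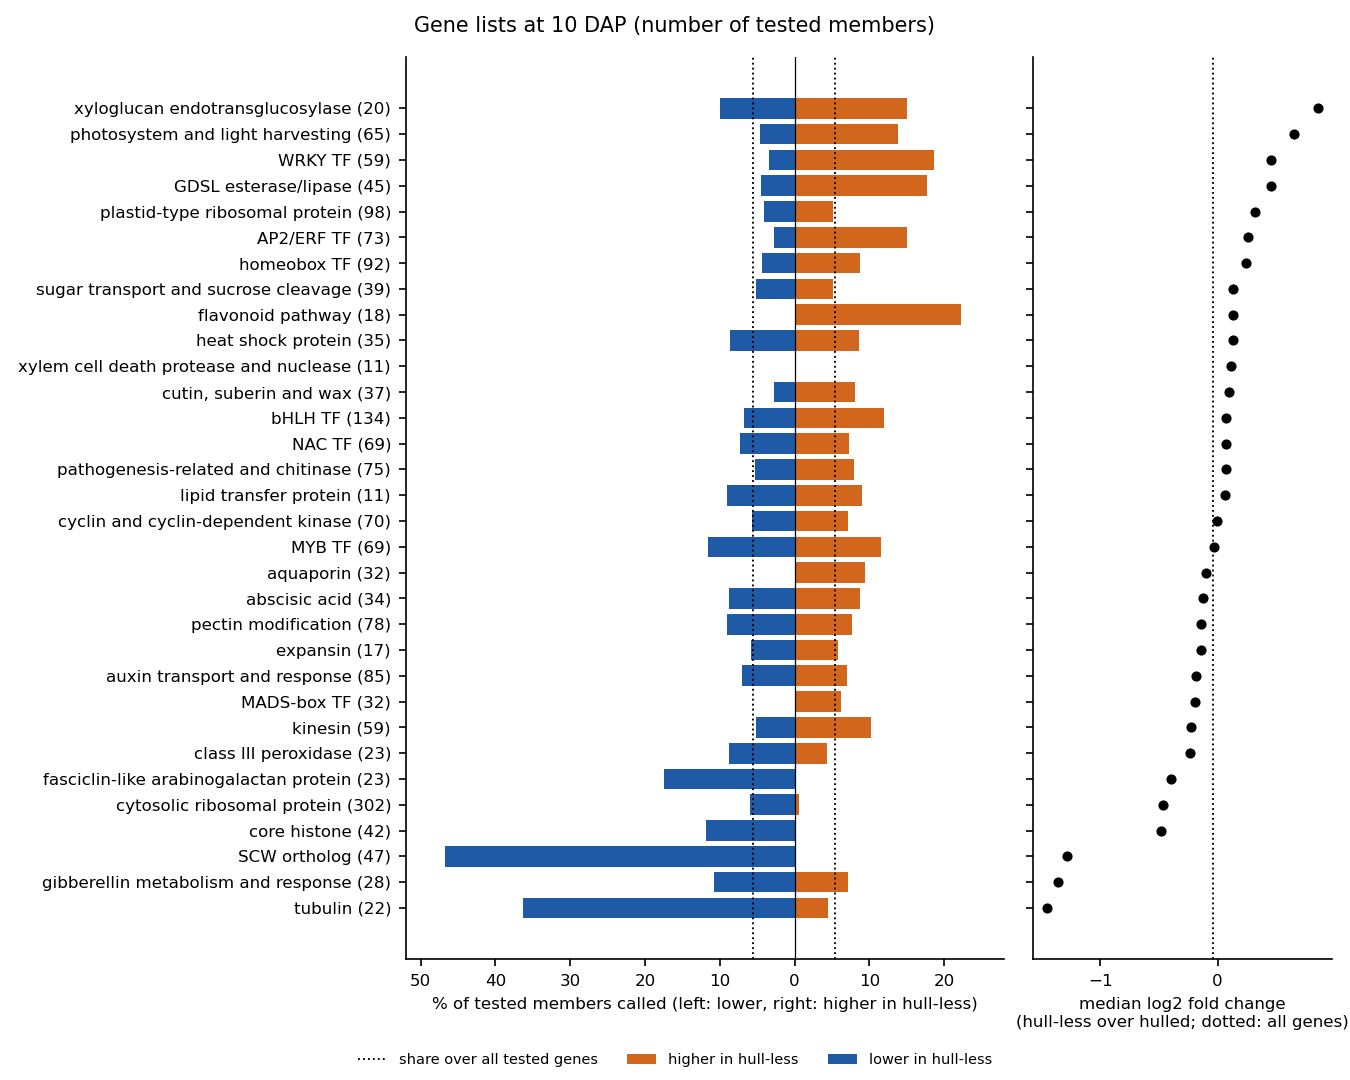
Share of the tested members of each gene list called lower (blue, left) or higher (orange, right) in hull-less coats, with the number tested in brackets, and the median log2 fold change of the list. Dotted lines give the shares over all tested genes (5.56% and 5.42%) and their median of -0.04. The shares of lower calls are largest in the SCW candidates (22 of 47) and the tubulins (8 of 22), counts that fell to 3 and 2 without hull-less replicate 2.

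Several genes that bear the same protein name had opposite differences of like size. Of the Tubby-like F-box protein 7 genes, Cp4.1LG14g03520 had 57.2, 184 and 172 CPM in hulled and 1.30, 1.39 and 1.09 CPM in hull-less coats, whereas Cp4.1LG00g08320 had 0.440, 1.83 and 1.48 CPM against 162, 168 and 203 CPM. Their log2 fold changes were -6.77 ± 0.56 and 7.16 ± 0.56. For bHLH49, Cp4.1LG00g11090 had 20.3, 17.2 and 10.0 CPM against 0.930, 1.45 and 1.66 CPM, and Cp4.1LG01g18930 had 1.14, 0.388 and 2.62 CPM against 24.0, 26.0 and 29.2 CPM. MYB44 (Cp4.1LG06g07790 lower, Cp4.1LG07g04550 higher) and non-specific lipid-transfer protein 10 (Cp4.1LG00g05770 lower, Cp4.1LG19g01490 higher) gave like pairs, of which Cp4.1LG00g05770 reached an edgeR adjusted p of 0.0952 without hull-less replicate 2. The other genes of these 4 pairs were kept in all 6 fits. How reads were shared between copies was not tested, so the direction of a single copy among these is uncertain.

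Beyond the SCW list, the 10 DAP differences mostly pointed the same way at the other stages. Of the 2318 DEGs, 2151 were also tested at 5 DAP and 80.3% of them had the same sign there, against 61.4% of all genes tested at both stages. At 20 DAP the shares were 82.2% of 2094 and 65.5%. For the 661 genes kept in all 6 fits they were 89.1% of 631 at 5 DAP and 85.9% of 612 at 20 DAP. The stages use separate libraries. Of 32 features at 3 counts or fewer in every hull-less and at least 50 in every hulled library at both 5 and 10 DAP, 5 had at least 50 counts in every hull-less library at 20 DAP, so the hull-less 20 DAP libraries differed from the earlier ones in which transcripts were read at all. For such genes a difference between stages and one between the plants sampled in the hull-less group cannot be told apart. In the contrast between stages, the accession difference at 10 DAP differed from that at 5 DAP in 1828 of 24259 genes (7.54%; 3.66% with a higher and 3.87% with a lower ratio at 10 DAP) and from that at 20 DAP in 2671 (11%; 5.98% and 5.03%). It differed from both in the same direction in 508 genes, of which 322 were DEGs at 10 DAP in that direction, 185 higher and 137 lower, and 110 were kept in all 6 fits. Of the 322, 228 were called at neither other stage, which the choice of the 322 favours. Over all tested genes, 12% were called at 5 DAP and 21.1% at 20 DAP. Among the 322 was the homeobox gene *HDG12* (Cp4.1LG20g00460), its log2 fold change being 0.08 at 5 DAP, 2.39 at 10 DAP and -2.38 at 20 DAP. The plastid glycerol-3-phosphate acyltransferase gene (Cp4.1LG05g00180), which makes phosphatidic acid precursors, had 0.28, 1.85 and 0.07 and, like *HDG12*, was kept in all 6 fits, and *HAT22* (Cp4.1LG01g09020) had -0.49, -2.92 and 0.08 (largest adjusted p given above).

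Developmental progress of the 10 DAP libraries was compared with genes that changed between 5 and 20 DAP. For 4554 genes (19.8% of those tested) that were higher at 20 than at 5 DAP in hulled coats, the median log2 level above the hulled 5 DAP mean was 0.77, 0.52 and 0.62 in the hulled libraries at 10 DAP and 0.55, 0.36 and 0.37 in the hull-less libraries. For the 4721 genes (20.6%) that were lower at 20 DAP, it was -1.02, -1.31 and -1.18 in hulled and -1.21, -1.07 and -1.29 in hull-less libraries. With the 4041 genes (18%) that rose in hull-less coats, the values were 0.74, 0.65 and 0.71 in hulled and 0.82, 0.64 and 0.77 in hull-less libraries. The 5185 genes (23.1%) that fell in hull-less coats stood at -1.01, -1.31 and -1.16 in hulled and at -1.16, -1.06 and -1.30 in hull-less libraries. The libraries of the accessions overlapped in all 4 gene groups, and hulled replicate 1 was the highest hulled library in all 4, thus the most risen and also the least fallen. At 20 DAP the first group, chosen in hulled coats, had reached 1.63 to 1.69 in hulled and 1.16 to 1.42 in hull-less coats. The genes chosen as rising in hull-less coats stood at 1.66 to 1.69 in hull-less and 1.37 to 1.43 in hulled coats. The choice of genes favours a larger value at 20 DAP in the accession that chose them, so these values do not rank the accessions.

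**Figure D5:**
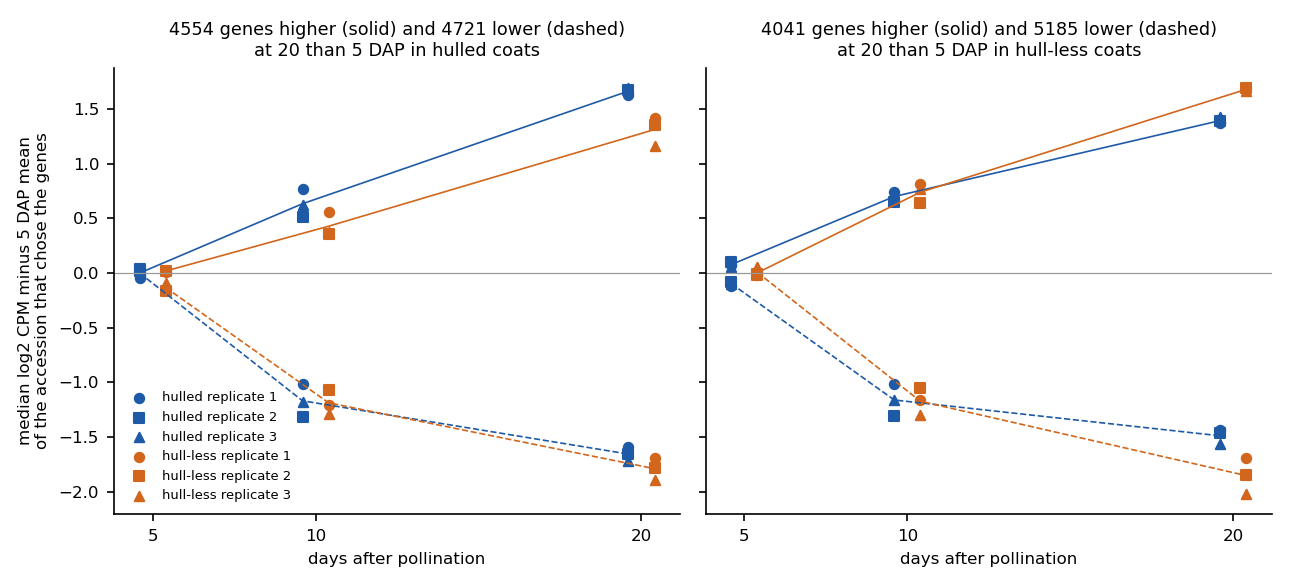
Median log2 CPM (pseudocount 0.5 CPM) of the genes that rose or fell between 5 and 20 DAP in hulled (left) or hull-less (right) coats, relative to the 5 DAP mean of the accession that chose them, for all 18 libraries. Symbols are libraries and lines join group means. At 10 DAP the libraries of both accessions lie between their 5 and 20 DAP values, at 0.36 to 0.82 for rising genes.

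The genes with the widest hulled range set the limit of the comparison. Thaumatin-like protein 1 (Cp4.1LG06g00660), of the pathogenesis-related family 5, had 0, 107 and 67.3 CPM in hulled and 85.3, 63.6 and 96.8 CPM in hull-less coats. The stress factor DREB1A (Cp4.1LG13g01840) had 0.0440, 100.2 and 38.5 CPM against 62.3, 53.3 and 80.4 CPM. The late embryogenesis protein homolog Lea14 (Cp4.1LG03g16530) had 1.14, 416 and 188 CPM against 110.5, 133 and 144 CPM. In these 3 genes hulled replicate 1 was near 0 and the other hulled libraries overlapped the hull-less ones. A shikimate hydroxycinnamoyltransferase gene (Cp4.1LG07g08290) had the opposite order, with 191, 0.388 and 187 CPM against 112, 241 and 420.0 CPM, and XTH23 (Cp4.1LG18g06180) had 0.176, 139 and 12.8 CPM against 52.5, 58.6 and 120.2 CPM. None of the 5 was called, with edgeR adjusted p from 0.687 to 0.858.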

How the data were processed

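Seed coat RNA of the 6 groups was sequenced from 3 biological replicates each. The deposited counts were made by the authors from reads filtered for quality and mapped to the *C. pepo* (Cp4.1) genome; the aligner and counting tool are not given in the sources used here. The authors also deposited FPKM values (from Cufflinks), which were not used in any test, and 15 columns of their own comparisons (group means, fold changes and p values), which were not used. No row lacked a gene name.

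Counts were analysed in R 4.3.3 with edgeR 4.0.16 (filterByExpr, TMM, quasi-likelihood test of HL against H, Benjamini-Hochberg adjustment; limma 3.58.1), and DESeq2 1.42.0 was an alternative. SE is that of the fitted log2 fold change. The scripts were tested on simulated data. Stage differences came from a fit of 18 libraries. Alternatives were other scaling, filters, libraries in the fit, a replicate block, no fold limit and each library left out.

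Lists were words of the Swiss-Prot names (21192 of 29484 features named) and transcription factor annotation. The members and lists were chosen with earlier results of these data known. Gene names come from the deposited table; 0 identifiers matched RefSeq. Named genes were *CpNST1*; the 12 highest and 12 lowest fold changes among described genes with a mean count of at least 100, no overlap and a call in all 6 fits; up to 5 genes per side with at most 3 counts in each library of 1 accession and at least 100 in the other; per list up to 2 called members per direction by smallest p; and the 5 genes with the widest hulled range. Other SCW candidates were named from the study's list, and the same-named pairs, XCP2 and the 11S globulin after their values were seen.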

Additional observations from a re-analysis of the deposited data

Results flagged for a closer look

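The accession difference of 51 of the 91 genes printed above with their identifiers changed between stages in the edgeR accession-by-stage contrast over the 18 libraries (adjusted p at most 0.05 and a difference of at least 1 on the log2 scale), 35 times against 5 DAP and 25 times against 20 DAP. Many of these genes were named for their difference at 10 DAP, and the contrast reuses the 10 DAP libraries. Such a choice favours a called stage difference. Over all genes of the contrast, 7.54% were called against 5 DAP and 11% against 20 DAP. Each value below is the 10 DAP log2 fold change (HL over H) minus the one at the other stage.

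Against 5 DAP, 3.87% of all genes in the contrast had a lower and 3.66% a higher ratio at 10 DAP. The difference was called lower in 16 of the 47 tested SCW candidates, of which 15 were among the 22 DEGs, and higher in 1. Of those printed above, the value was -2.98 for *CesA4*, -5.04 for *CesA7*, -5.72 for *CesA8*, -4.60 for *CTL2* and -4.24 for *COBL4*. For xylan genes it was -4.70 for *IRX9*, -2.53 for *IRX10*, -8.69 for *PARVUS* and -1.14 for *GUX3*. For lignin genes it was -4.65 for *CCoAOMT*, -2.78 for *HCT*, -1.62 for *C3H1* and -1.20 for *CSE*, and for the microtubule bundling protein MAP65-8 it was -2.54. Peroxidase 64 had -5.42, the dirigent-type protein gene Cp4.1LG14g02290 had -8.70, *FLA7* had -2.74, and the tubulin beta-2 and beta-5 chains had -2.49 and -3.26.

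Further negative values against 5 DAP were -2.75 for the isoprenoid enzyme Cp4.1LG01g00230, -5.02 for RAC13, -2.97 for 2-alkenal reductase, -2.44 for *HAT22* and -1.14 for *CINV2*. Positive values were 7.33 for trichoanguina, 4.68 for the acidic endochitinase, 5.54 for sulfate transporter 3.1, 1.75 for XTH9 and 2.30 for *HDG12*. They were 1.27 for PSB28, 2.38 for *psaK*, 1.62 for *ARF10*, 2.95 for the flavonoid 3'-monooxygenase Cp4.1LG03g15110, 1.56 for the acyltransferase Cp4.1LG05g00180 and 3.43 for 3-ketoacyl-CoA synthase 11.

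Against 20 DAP, negative values of large size were found for genes that were near 0 in hull-less coats at 10 DAP. Since some transcripts absent from hull-less coats at 5 and 10 DAP were read at the hulled level at 20 DAP (given below), a change over development and a difference between the plants sampled for the hull-less 20 DAP libraries cannot be told apart in these values, and a value against libraries with no count depends on the prior count. They were -9.34 for Cp4.1LG01g00230, -9.04 for NAC domain-containing protein 10, -9.35 for the glyceraldehyde-3-phosphate dehydrogenase Cp4.1LG07g10870 and -15.50 for Cp4.1LG19g03480. Photosystem I subunit N had -3.47, peroxidase 64 had -4.87, *SWEET15* had -5.80, gibberellin-regulated protein 1 had -4.26 and pectinesterase 22 had -2.77. *GPAT5* had -2.07, *HAT22* had -3.01, *GUX3* had -1.31 and KORRIGAN had -1.14. Positive values were 8.62 for the MYB44 gene Cp4.1LG07g04550, 3.19 for *ERF053*, 6.93 for the APETALA 2 gene, 4.75 for *HDG12*, 4.60 for *KIN-14S* and 3.47 for *PIP2-7*. They were 1.55 for PSB28, 1.76 for Cp4.1LG05g00180, 2.47 for *CesA4*, 3.80 for *CesA7*, 5.12 for *FRA8* and 1.83 for *C4H*.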

How the results depend on the processing

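The count of 2318 DEGs was 2309 with RLE and 2186 with upper-quartile scaling, 2256 over all genes with at least 1 count and 3241 with no fold limit. DESeq2 called 3690 (1729 higher, 1961 lower, 3526 without overlap), and a single edgeR fit of all 18 libraries called 4250 (1792 higher, 2458 lower, 3763 without overlap). With at least 10 counts in every library, 1562 were called, 863 higher and 699 lower, and 12 SCW candidates were lower, since that filter drops genes near 0 in 1 accession. The share of higher genes among the calls lay between 42.2% and 55.2% in these fits and the median of all genes between -0.12 and -0.03. The labels do not say whether replicate numbers pair the samples. Same-numbered deviations from the group mean correlated at 0.167, -0.224 and 0.0509, a description across genes that cannot decide it. With the replicate block 591 genes were called (308 higher, 283 lower, 590 without overlap) and 4 SCW candidates were lower. With 1 library left out the counts ran from 849 to 3344 in all, from 444 to 1709 higher, from 405 to 1635 lower and from 849 to 3344 without overlap, and the SCW candidates from 3 to 26 lower and from 0 to 2 higher. The 661 genes kept in all 6 fits were all called under RLE, DESeq2, the lowest filter and the fit of 18 libraries, 659 under upper-quartile scaling, 461 under the block and 438 with at least 10 counts in every library. Stage differences numbered 1852 and 1764 (against 5 DAP) and 2647 and 2564 (against 20 DAP) with RLE and upper-quartile scaling. Genes that were not called turned sign with some library left out. Over these 6 fits the log2 fold change ran from -1.32 to 0.087 for *CpNST1*, from -0.087 to 1.32 for thaumatin-like protein 1 (Cp4.1LG06g00660), from -0.085 to 1.80 for DREB1A (Cp4.1LG13g01840), from -1.22 to 0.48 for Lea14 and from -0.29 to 4.70 for the lignin hydroxylase *FSH1*. It ran from -0.35 to 2.15 for *LBD18/LBD30*, from -0.58 to 0.068 for *ROP11*, from -0.76 to 0.064 for *ROPGEF4* and from -0.40 to 0.22 for *RWA2*. Under the block Lea14 had 0.57 and *RWA2* had 0.081. Beyond the filter, the cause was not tested.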

Other observations

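Some transcripts were read in hull-less coats at 1 part of development only. By a rule chosen after the counts were seen, 32 features had at most 3 counts in every hull-less library and at least 50 in every hulled library at both 5 and 10 DAP, and 23 of them were also at most 3 in every hull-less library at 20 DAP. However, 5 had at least 50 counts in every hull-less library at 20 DAP. The NKAP family gene (Cp4.1LG03g04240), whose animal namesake acts in transcription and splicing, had at most 1 count in each hull-less library of the earlier stages. Its hull-less 20 DAP libraries held 187, 182 and 220 counts, and the hulled ones of that stage held 301, 256 and 309. The unnamed gene Cp4.1LG19g03480 had no count at 10 DAP and 17624, 18507 and 9297 counts at the last stage, against 14767, 13020 and 41868 in hulled coats. A protein kinase gene near it (Cp4.1LG19g03500) went from 0 to 211, 252 and 206 counts, against 206, 157 and 217.

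The reverse was also seen. In 4 features at least 50 counts were read in every library of both accessions except the hull-less 20 DAP libraries, which had at most 3. The mitochondrial inner membrane protease subunit 1 gene (Cp4.1LG19g06350) had 196, 240 and 203 counts in the hull-less 10 DAP libraries. It had 0 in each of the last stage, where hulled coats had 193, 131 and 162. The cytochrome P450 78A3 gene (Cp4.1LG17g04440) fell from 1684, 2264 and 1471 to 3, 3 and 1. Of 11 features with at most 3 counts in hulled coats at 5 and 10 DAP, 10 stayed there at 20 DAP and 0 reached 50. What set these patterns was not tested.

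DEGs were spread over all linkage groups. On linkage group 16, 113 of 705 tested genes were called (16.0%), and 224 of 889 (25.2%) among the unplaced genes of group 0, whereas the other groups had 7.36% to 11.8%. The shares kept in all 6 fits were 5.82% and 9.79%.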
